A study of Saccharomyces cerevisiae S288C with 9 samples.

Results

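Budding yeast supplied with plenty of glucose ferments it to ethanol, and the messenger RNA of such cells is known to be dominated by glycolytic enzymes and by the parts of the ribosome. Many of these genes are duplicated, because the lineage of this yeast underwent a whole-genome duplication, and glucose keeps genes for other carbon sources repressed through the Snf1 and Mig1 pathway. The level of every annotated gene in unperturbed wild-type (WT) cells growing in this way is described here, with the genes and gene copies that take up most of the reads and those for which none were counted.

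The cells were Saccharomyces cerevisiae labelled as strain S288C, with the genotype WT Control, grown to mid-log phase in YPD, a rich medium of yeast extract, peptone and dextrose, with no treatment. The members are the 3 WT libraries of the 9 in the series, described by the series as biological replicates, and all 7127 rows of the count table. No other strain enters any value. The labels give no mating type and no marker alleles, and their extraction text describes chromatin immunoprecipitation, while the series' design describes total RNA taken with phenol and chloroform.

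The libraries held 19658103, 17376370 and 17282728 counts in WT replicates 1, 2 and 3. A level is the count per kilobase of the row's Length, scaled to the library total (FPKM), so levels can be compared between genes. The Length of 5895 of the 5899 coding rows is a multiple of 3, so it is a coding length without untranslated regions. Pearson's correlation was taken on log2 of CPM (counts scaled to the library total only) plus 1. It covered the 5703 coding genes above a minimum count, which are not independent replicates. The values were 0.9954 between WT replicates 1 and 2, 0.9947 between 1 and 3 and 0.9888 between 2 and 3. WT replicates 2 and 3 stood furthest apart. Of the 4695 coding genes with at least 20 CPM, 45.7% were highest in WT replicate 3 and 47.7% lowest in WT replicate 2. These shares depend on the scaling: with TMM, 1872 genes were highest in WT replicate 3 and 1900 lowest in WT replicate 2. With DESeq2 size factors these numbers were 1916 and 1922. Results that move with these libraries are given with and without them where they change.

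Reads that touch more than 1 row were not counted, since the counting command in the file header sets no option to keep them. A row was therefore called clear when other rows covered at most 50% of its bases and at least 50% of its 75-base stretches occurred once in the genome, a criterion added after the values were seen. Of the 5899 coding rows, 5618 were clear, 128 were mostly covered by other rows, 152 were mostly repeated elsewhere in the genome and 1 was shorter than 75 bases. The level of a covered row is a lower limit to what its gene gives, and the level of a repeated row is uncertain, since reads may be placed at another copy.

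The WT transcriptome was concentrated in few genes. Protein-coding rows held 99.4% of the counts in each library. The 10 coding genes with most counts held 13.7%, 14.5% and 13% in WT replicates 1, 2 and 3, a mean of 13.7% ± 0.733 (SD, n = 3). Of the counts, 25% fell on 44 genes, 50% on 285 genes and 90% on 2596 genes. The median level of the clear coding rows was 44.1 FPKM, and 199 of them, or 3.54%, reached 1000 FPKM.

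Of the 25 coding genes with the highest level, 10 encode enzymes of glycolysis and ethanol fermentation, 9 encode proteins of the cytosolic ribosome and 3 encode proteins of the cell wall. The first was TDH3 (YGR192C, chrVII:882812-883810, minus strand), a glyceraldehyde-3-phosphate dehydrogenase that carries most of this step of glycolysis. Its level was 29483, 31152 and 28804 FPKM in WT replicates 1, 2 and 3, a mean of 29813 ± 1208 FPKM (SD, n = 3), and it alone held 2.98% ± 0.121 of the counts. The lowest library was thus above every library of the next gene, and TDH3 stood 7.31 times above the gene in place 25. FBA1, the aldolase, had 16498, 18128 and 15902 FPKM. ADH1, the alcohol dehydrogenase that makes ethanol, had 16724, 17265 and 15896 FPKM. ENO2, an enolase, had 15972, 17376 and 14600.1 FPKM. The ranges of these 3 genes overlap, so their order among each other does not exceed the spread.

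**Figure D1:**
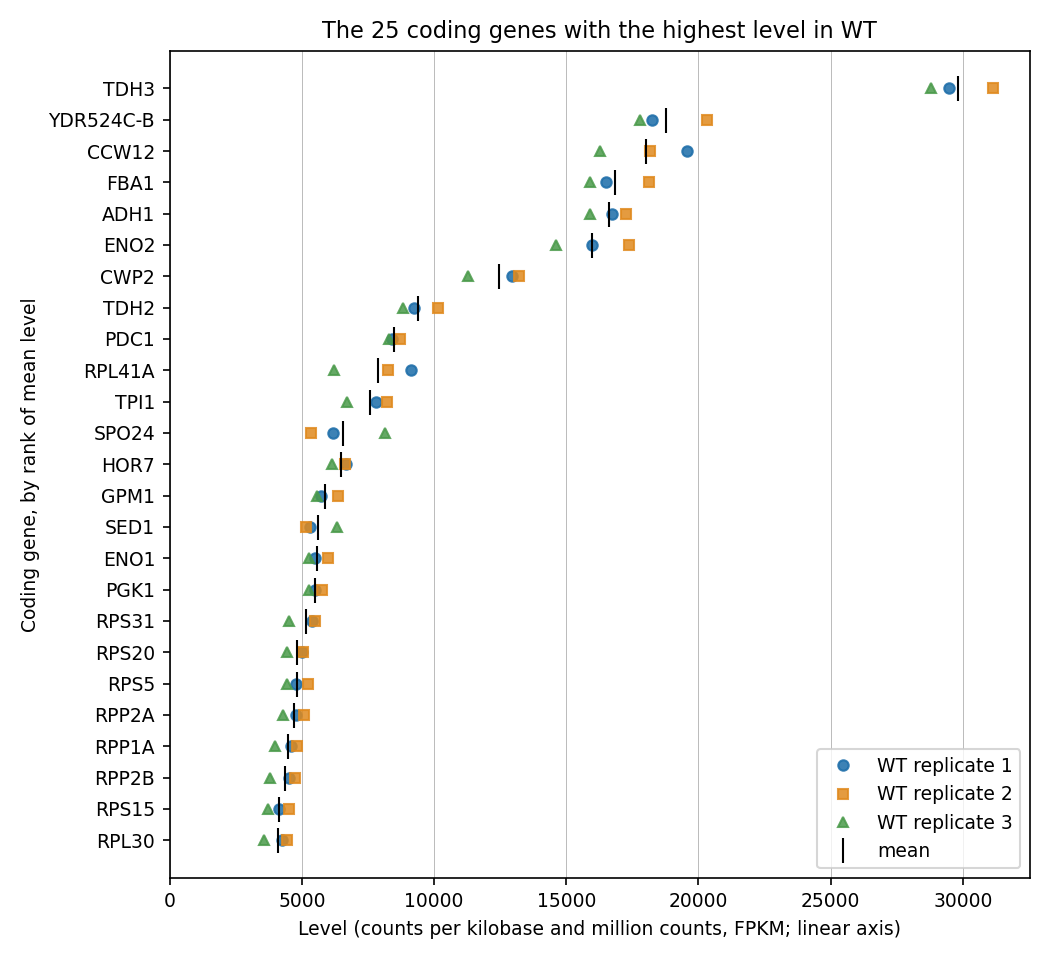
Level (FPKM, linear axis) of the 25 coding genes with the highest mean level in WT, 1 row per gene, with a point for each of the 3 WT libraries and a black tick for the mean. TDH3 stands apart at 28804 to 31152 FPKM. Of the 25 genes, 23 are lowest in WT replicate 3, beside 33.9% of all coding genes with at least 20 CPM.

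The 3 TDH genes code for the same enzyme at different levels, and their upstream sequence is shown as an example of such copies. TDH2 averaged 9406 ± 677 FPKM and TDH1 3393 ± 364 FPKM (SD, n = 3 each). The sequences run 5′ to 3′ on the gene's strand from 300 to 101 bases before the start codon, from RefSeq's R64 assembly (chrVII:883911-884110 for TDH3, chrX:454782-454981 for TDH2 and chrX:337971-338170 for TDH1). Capitals mark matches to TATAAA and to CTTCC on either strand.
TDH3: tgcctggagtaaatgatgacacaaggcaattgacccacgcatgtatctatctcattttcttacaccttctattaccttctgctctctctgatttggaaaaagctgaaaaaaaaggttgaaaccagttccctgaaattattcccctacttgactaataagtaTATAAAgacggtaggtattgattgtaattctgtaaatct
TDH2: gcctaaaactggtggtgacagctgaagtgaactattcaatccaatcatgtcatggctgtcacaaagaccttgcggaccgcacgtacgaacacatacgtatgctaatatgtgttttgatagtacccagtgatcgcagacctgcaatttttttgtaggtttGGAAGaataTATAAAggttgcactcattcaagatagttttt
TDH1: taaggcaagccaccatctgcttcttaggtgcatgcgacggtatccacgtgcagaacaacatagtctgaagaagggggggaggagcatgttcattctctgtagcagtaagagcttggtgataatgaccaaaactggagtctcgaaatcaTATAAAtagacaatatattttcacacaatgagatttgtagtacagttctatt
Each of the 3 windows held 1 TATAAA, which began 139 bases before the start codon in TDH3, 132 in TDH2 and 152 in TDH1. A CTTCC match was found in the TDH2 window only, on the other strand. Bases outside the windows were not searched, so sites there would be missed. CTTCC is the core of the site that the glycolytic activator Gcr1 binds.

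In windows of the same size, TATAAA on either strand was present before 14 of the 21 clear glycolysis and fermentation genes (66.7%) and before 60 of the 100 highest genes other than ribosomal proteins (60%). It was present in 16.8% of 113 clear ribosomal protein genes, 21.9% of the 64 clear genes under 1 FPKM and 33.7% of all 5618 clear coding genes. CTTCC occurred in 38.1% of the glycolysis and fermentation genes and 32.4% of all clear coding genes. Its share was 46.9% in the ribosomal protein genes, 40% in the 100 highest other genes and 35.9% in the genes under 1 FPKM. A CTTCC match was thus not particular to the glycolysis and fermentation genes. These shares describe letters in a window and are not counts of bound sites.

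Glycolysis and fermentation, a list of 23 genes, held 15.7%, 16.7% and 15.3% of all counts in WT replicates 1, 2 and 3. Of these, 16 reached 1000 FPKM, and the list's median was 3393 FPKM. Enzymes that act on the small sugar phosphates and on pyruvate were at the top: TPI1, the triose phosphate isomerase, averaged 7576 ± 792 FPKM, and PDC1, the main pyruvate decarboxylase, 8469.5 ± 215 FPKM (SD, n = 3 each). The enzymes that open the pathway were lower. HXK1, HXK2 and GLK1, which phosphorylate glucose, averaged 2328 ± 419, 2128 ± 188 and 2197 ± 259 FPKM. PFK1 and PFK2, the subunits of phosphofructokinase, averaged 624 ± 10.3 and 533 ± 14.4 FPKM. PDC6, a minor pyruvate decarboxylase, was the lowest of the list at 2.77 ± 0.332 FPKM.

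The places of 3 glycolytic genes depend on how the row is read. Dubious frames cover 62.9% of GPM1, the phosphoglycerate mutase, 47.6% of PGK1, the phosphoglycerate kinase, and 64.1% of CDC19, the pyruvate kinase. With the full Length they averaged 5879, 5503 and 3406 FPKM, places 14, 17 and 35 among coding rows. Divided by the bases that no other row covers, an alternative chosen after seeing the data, they gave 15849, 10494 and 9479 FPKM, places 7, 9 and 10. CDC19 had 3322, 3429.9 and 3465 FPKM in WT replicates 1, 2 and 3 with the full Length.

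Cytosolic ribosomal proteins formed the other large block. Their 137 rows held 12.1%, 12.4% and 10.3% of the counts in WT replicates 1, 2 and 3. The median of the 113 clear rows was 1754 FPKM, and 91 of them reached 1000 FPKM. RPL41A, which encodes the shortest of these proteins, was the highest at 9113, 8272 and 6227 FPKM. RPL15B, the minor copy of its pair, was the lowest clear row at 61.3, 59.1 and 51.6 FPKM. All 131 ribosomal protein rows with at least 20 CPM were lowest in WT replicate 3, against 33.9% of the 4695 coding genes at that level. This held for 131 of 131 also with TMM and with DESeq2 scaling, beside 1879 and 1839 of the 4695 coding genes.

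Ribosomal protein rows that share most of their bases with another row were lower. Of the 10 mostly covered rows, 6 were under 100 FPKM, with a median of 22.3 FPKM for the 10, while 1 of the 113 clear rows, RPL15B, was under 100 FPKM. RPL39 had 2, 4 and 0 counts and RPL43A 3, 4 and 3 counts in WT replicates 1, 2 and 3. Other rows cover 96.2% of RPL39 and 99.3% of RPL43A. RPL43B, the partner of RPL43A, has a clear row and was at 1568, 1598 and 1377 FPKM.

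Translation factors, which bring transfer RNA to the ribosome and move it along the message, held 2.73% ± 0.143 of the counts in 32 genes. TEF2 and TEF1, which encode the same elongation factor, averaged 2751 ± 194 and 2030.4 ± 146 FPKM in rows that are mostly repeated, because their coding sequences are 99.9% identical. EFB1, the exchange factor of that protein, averaged 2235 ± 265 FPKM. HEF3, a minor copy of the elongation factor YEF3, averaged 7.21 ± 0.563 FPKM. HYP2, the main gene of the factor eIF5A, had 0 counts in all 3 libraries, and the frame YEL034C-A covers all of its bases. Of the 31 rows at 20 CPM or more, 24 were lowest in WT replicate 3, against 33.9% of the 4695 coding genes at that level.

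Cell wall proteins included some of the highest rows of the whole table. Their 36 genes held 3.82% ± 0.0378 of the counts (SD, n = 3), and 14 reached 1000 FPKM. CCW12, an abundant mannoprotein anchored to the wall, had 19551, 18185 and 16274 FPKM, and CWP2, another, had 12941, 13196 and 11278 FPKM. SED1, a structural glycoprotein of the surface, had 5299, 5164 and 6334 FPKM. At the other end of the list, the flocculin FLO1, which makes cells stick together, averaged 1.27 ± 0.133 FPKM and FLO11, needed for filaments and mats, 5.59 ± 0.173 FPKM.

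Several very short rows stood near the top. Of the 25 highest genes, 13 have rows of under 500 bases. YDR524C-B, an uncharacterised small frame of 201 bases, had 18260.2, 20313 and 17787 FPKM and had the second highest mean, though its range overlaps that of CCW12, which was higher in WT replicate 1. SPO24, named for sporulation, had 6163, 5347 and 8132 FPKM, and HOR7, a small protein of the osmotic response, 6661, 6638 and 6136 FPKM. A fragment that reaches past the ends of a short coding row still counts for it, so its level per coding base is uncertain. With the number of unique 75-base stretches as the length, RPL41A, with a row of 78 bases, gave 153477 FPKM and passed TDH3 at 37136 FPKM, while YDR524C-B gave 29733 and CCW12 22065 FPKM. With the Length less 200 bases, which drops rows under 300 bases, CCW12 gave 35828 FPKM, beside 37275 FPKM for TDH3. Both alternatives shorten the length, while fragments reaching past the ends would call for a longer one, which was not tried. They therefore cannot tell whether short rows are overstated per coding base. TDH3 took place 3 with unique stretches and place 1 with Length less 200 bases, while its place by counts does not use Length. Among frames with no RefSeq gene, chosen after their values were seen, YDR133C had a mean of 7249.9 FPKM, and 67.6% of that row lies over CCW22, a RefSeq pseudogene with no row of its own.

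The highest noncoding rows were far lower. SNR41, SNR44, SNR33, SNR49 and SNR4, all small nucleolar RNAs that guide modification of ribosomal RNA, averaged 155, 154, 141, 126 and 107 FPKM. All 22 ribosomal RNA rows together had 469 counts, the 275 transfer RNA rows 1822 counts and the 55 rows of the mitochondrial genome 14 counts. Of the 106 transfer RNA rows at 0, 84 are shorter than 75 bases and 9 are mostly repeated. Of the 12 ribosomal RNA rows at 0, 10 are mostly covered by other rows and 2 are mostly repeated. By contrast, 35 of the 49 mitochondrial rows at 0 are clear. These low counts are therefore not read as levels of these RNAs in the cells, and their cause was not tested.

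**Figure D2:**
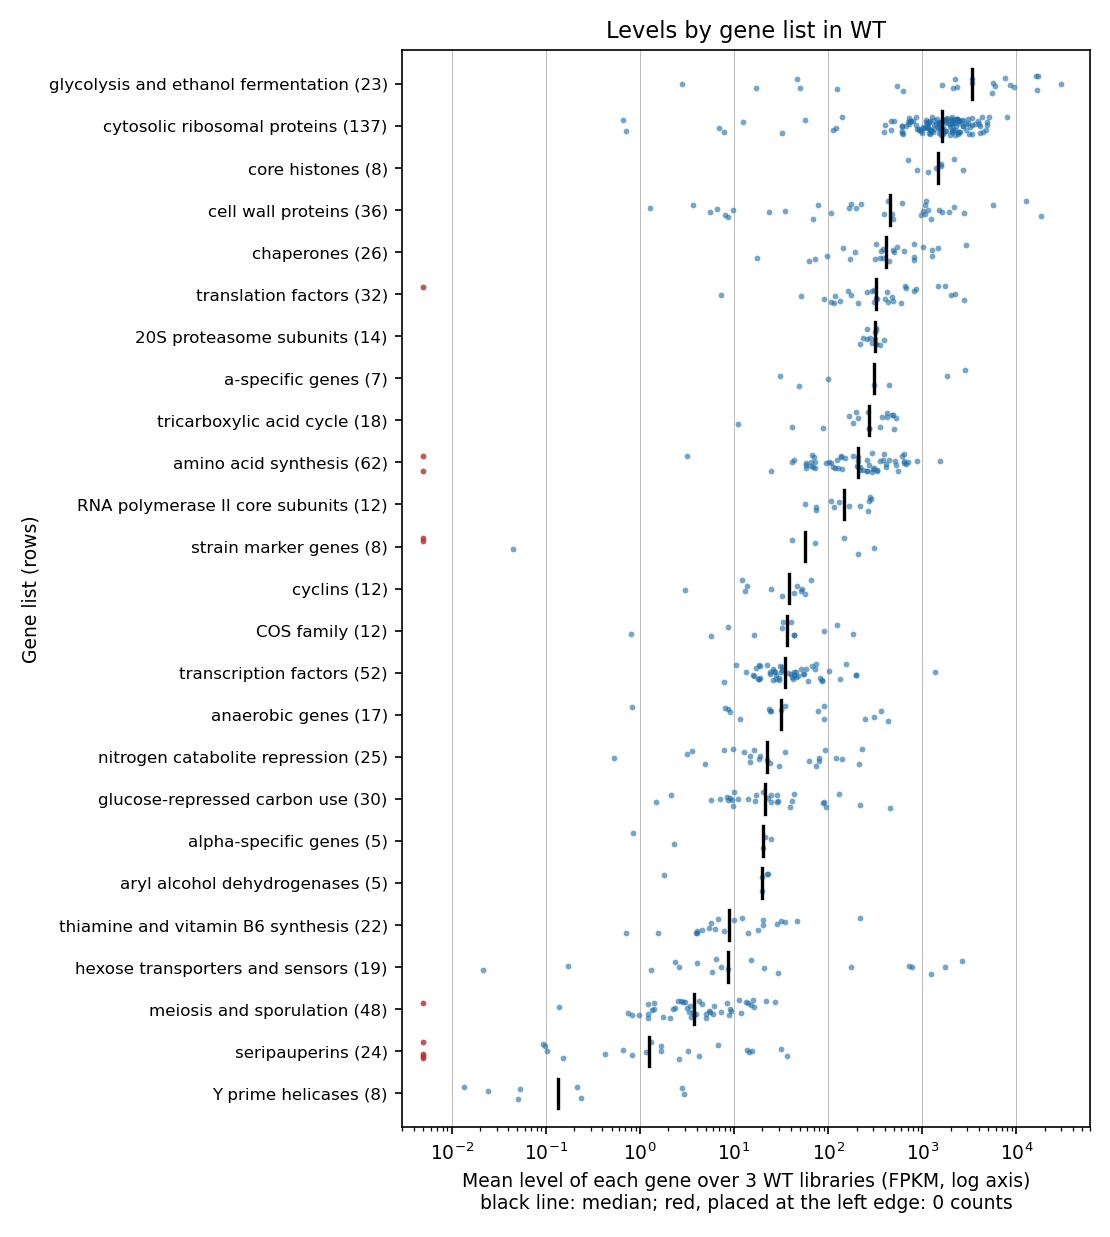
Mean level over 3 WT libraries (FPKM, log axis) of each gene in the lists with at least 4 rows, 1 line per list, with the median as a black line and rows with 0 counts in red at the left edge. The list medians run from 3393 FPKM for glycolysis and fermentation to 0.135 FPKM for the Y prime helicases.

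Core histone genes, which encode the proteins that package DNA, lay between 709.7 FPKM for HHT1 and 2671 FPKM for HHT2, with a median of 1477 FPKM over 8 genes. The 20S proteasome, whose 14 subunits are built in equal number, showed the narrowest spread of the lists: from 218 ± 12.3 FPKM for PUP2 to 389.9 ± 14.9 FPKM for PUP3. The 12 core subunits of RNA polymerase II and its shared subunits ranged from 56.7 ± 2.10 FPKM for RPB3 to 285 ± 26.2 FPKM for RPC10. Amino acid synthesis genes had a median of 207 FPKM over 62 genes, 2 of them, LEU2 and MET17, with 0 counts. GLN1, glutamine synthetase, was its highest at 1600.0, 1514 and 1458 FPKM. The tricarboxylic acid cycle had a median of 271 FPKM, from 529.7 ± 44.1 FPKM for LSC1 to 10.9 ± 3.67 FPKM for CIT3.

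The 52 transcription factors of the list had a median of 34.7 FPKM, somewhat below the 44.1 FPKM of all clear coding rows. Of these, 6 reached 100 FPKM (25.6% of all clear coding rows did) and 1 was under 10 FPKM. GCN4, the activator of amino acid synthesis, which is held back mainly at translation, was far above the others at 1366, 1419.8 and 1339 FPKM. IFH1, a coactivator of ribosomal protein genes, was the lowest at 8.03, 7.75 and 7.51 FPKM. The 12 cyclins lay between 65.8 ± 13.3 FPKM for CLN2 and, as the lowest, CLB6 at 3.34, 3.83 and 1.82 FPKM. In cells that are not synchronised, a low mean cannot be told apart from a high level in a short part of the cycle. More generally, fewer cells of a kind and less RNA in each cell cannot be told apart in these bulk libraries.

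The list of 30 genes that glucose represses had a median of 21.4 FPKM, beside 44.1 FPKM for all clear coding rows, and none was at 0. This holds for the list only: HXT2, a carrier induced by low glucose, is not in it and averaged 2633 FPKM. SUC2, the invertase, was the highest at 359, 397 and 604 FPKM, and MDH2, a malate dehydrogenase used to make glucose, followed at 198, 178 and 274 FPKM. SIP4, a regulator of glucose synthesis genes, was the lowest at 1.39, 1.32 and 1.72 FPKM. The galactose enzymes GAL1, GAL7 and GAL10 averaged 9.16 ± 0.991, 9.61 ± 1.26 and 13.9 ± 2.85 FPKM. All 20 members with at least 20 CPM were highest in WT replicate 3, against 45.7% of coding genes, and 16 were lowest in WT replicate 2. With TMM and with DESeq2 scaling all 20 were again highest in WT replicate 3, beside 1872 and 1916 of the 4695 coding genes.

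Hexose transporters were used very unequally. HXT2, a carrier known to be induced by low glucose, had 2162, 1400.3 and 4338 FPKM in WT replicates 1, 2 and 3, and its mean of 2633 ± 1524 FPKM rests on WT replicate 3. HXT3, a low-affinity carrier, had 1655, 1714 and 1842 FPKM. HXT4 had 1149.6, 970.2 and 1567 FPKM. The ranges of HXT2 and HXT3 overlap, so their order is within the spread. HXT6 and HXT7, in mostly repeated rows, averaged 776 ± 241 and 729 ± 254 FPKM (SD, n = 3 each). HXT1, the carrier of very high glucose, had 157, 168 and 199 FPKM, below every library of HXT3, HXT4, HXT6 and HXT7. HXT14 averaged 0.171 ± 0.0371 FPKM. HXT16 had 1, 0 and 1 counts, in a row of which 9.08% of the 75-base stretches are its own.

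Lists of nutrient genes had medians below the 44.1 FPKM of all clear coding rows. The thiamine and vitamin B6 list had a median of 8.90 FPKM over 22 rows, 7 of them not clear, and of 18.0 FPKM over its 15 clear rows. PHO3, an acid phosphatase, was its highest at 219 ± 38.0 FPKM. The nitrogen catabolite list had a median of 22.2 FPKM over 25 rows, from 231 ± 28.4 FPKM for LAP3, a peptidase, to 0.526 ± 0.0753 FPKM for DAL80, a repressor whose row is 50.2% covered. The anaerobic list had a median of 31.7 FPKM over 17 genes, with TIR1, a wall mannoprotein, at 428 ± 69.5 FPKM and PAU24, a seripauperin, at 0.815 ± 0.720 FPKM. Chaperones were higher, with a median of 413 FPKM over 26 genes, from CPR1, a peptidyl-prolyl isomerase, at 2912 ± 138 FPKM to SSA3, a stress-induced HSP70, at 17.5 ± 1.31 FPKM.

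Meiotic genes were low. Of the 48, 39 were under 10 FPKM and none reached 100 FPKM, with a median of 3.74 FPKM. SMK1, a kinase of spore wall formation, was the highest at 25.8, 24.5 and 30.8 FPKM. DMC1, the meiotic recombinase, had 19.9, 17.6 and 27.9 FPKM, and SPO11, which makes the meiotic DNA breaks, averaged 3.30 ± 0.468 FPKM. CDA2, a chitin deacetylase of the spore wall, had 2 to 3 counts in each library, a mean of 0.139 ± 0.0407 FPKM. IME4 had 0 counts, and RME2, its antisense RNA, covers the whole row.

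Genes specific to a cells were well above those specific to alpha cells. The a-specific genes had a median of 308 FPKM over 7 genes, led by the pheromone genes MFA2 at 2839.6, 2996 and 2623 FPKM and MFA1 at 1604, 2341 and 1569.6 FPKM. STE2, the receptor for alpha factor, had 395, 502 and 434 FPKM. The 5 alpha-specific genes had a median of 20.4 FPKM. STE3, the receptor for a factor, had 1.76, 1.87 and 3.19 FPKM, and MF(ALPHA)1, the main alpha factor gene, had 0.919, 1.27 and 0.349 FPKM. The lowest a-specific gene, ASG7, averaged 30.6 ± 3.79 FPKM and the highest alpha-specific gene, SAG1, 24.8 ± 1.38 FPKM. The rows MATALPHA1, MATALPHA2, HMLALPHA1 and HMLALPHA2 had 0 counts in the 3 libraries. None of their 75-base stretches occurs once in the genome, so these zeros were not read for mating type.

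Paralogs were compared inside each library, with 1 fit over 201 pairs by edgeR's quasi-likelihood test. A pair was called where the fold exceeded 1.5 and the p adjusted over all pairs by Benjamini and Hochberg's method was below 0.05. By this rule 148 pairs, 73.6%, differed: the first member, as listed, was higher in 109 (54.2%) and the second in 39 (19.4%). The order of members was written by hand for 142 pairs, so this split is not read as a result about the genes. In the 59 ribosomal protein pairs, ordered A then B, the first was higher in 24 called pairs and the second in 14. In 191 pairs the same member was higher in all 3 libraries, and the median fold between members was 2.23. Of the 175 pairs with both rows clear, 131 were called. A pair not called is not shown to be equal: 38 pairs had an adjusted p under the threshold and a smaller fold, and 15 missed it.

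**Figure D3:**
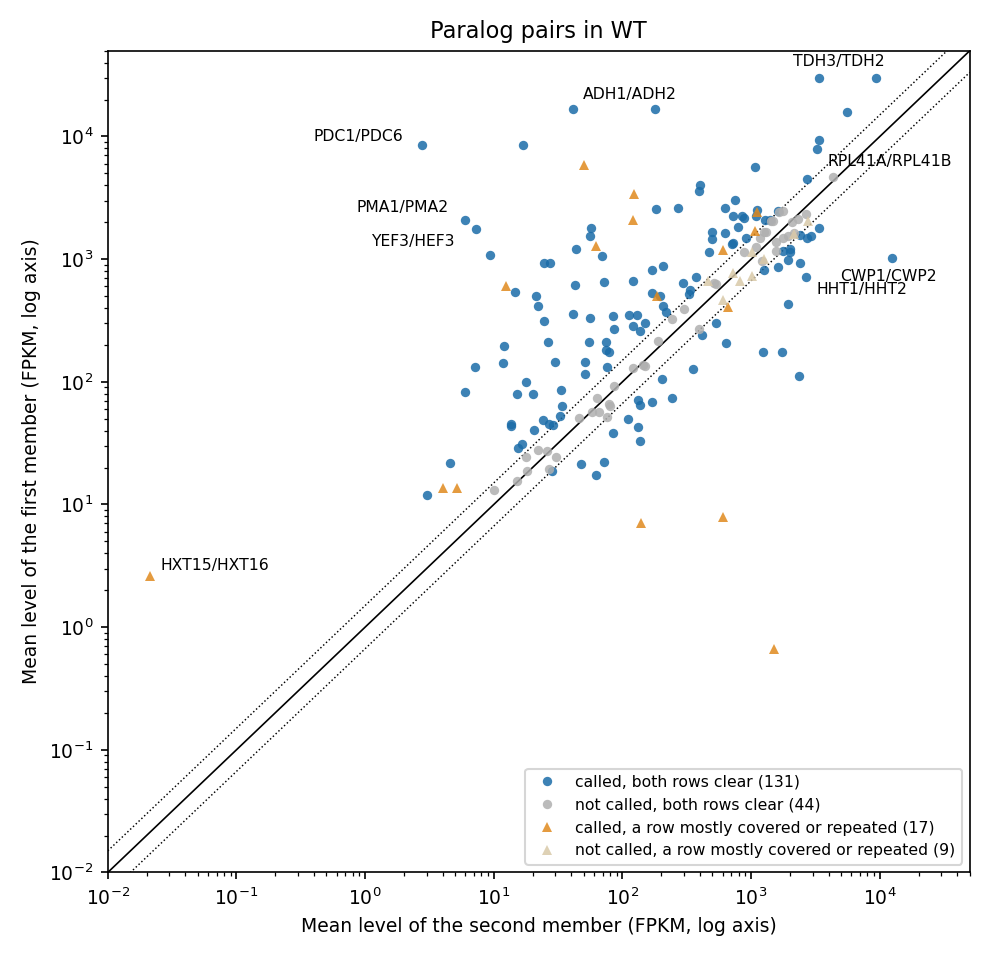
Mean level over 3 WT libraries of the first member (vertical) and the second member (horizontal) of 201 paralog pairs (FPKM, log axes), with equality as a solid line and a fold of 1.5 as dotted lines. Blue circles are the 131 called pairs of clear rows and orange triangles the 17 called pairs with a row that is not clear, with the pairs not called in paler colours. HYP2/ANB1 is not drawn, since HYP2 had 0 counts.

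Single copies held nearly all reads of the fermentation enzymes. PDC1 had 8389, 8713 and 8307 FPKM, PDC5 15.8, 19.8 and 15.3 FPKM and PDC6 2.65, 2.52 and 3.15 FPKM. PDC1 was 502 times PDC5 (log2 8.97, SE 0.10, edgeR adjusted p = 1.03e-06) and 3058 times PDC6 (log2 11.58, SE 0.10, edgeR adjusted p = 1.03e-06). ADH2, which consumes ethanol and is repressed by glucose, had 28.9, 38.0 and 56.6 FPKM, so ADH1 was 417 times ADH2 (log2 8.70, SE 0.29, edgeR adjusted p = 1.53e-05). Against ADH5, ADH1 was 93.3 times higher. The first members did not overlap with the second in any of these pairs.

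The TDH and ENO copies were closer. TDH3 was 3.17 times TDH2 and 8.81 times TDH1, and TDH2 was 2.78 times TDH1, though 95.8% of the coding bases of TDH3 and TDH2 are identical. ENO2 was 2.87 times ENO1 (log2 1.52, SE 0.04, edgeR adjusted p = 9.22e-06), with coding sequences 94.8% identical. Further apart were GPM1, at 117 times GPM2, and CDC19, at 28.0 times PYK2. Other rows cover most of GPM1 and CDC19, so the levels of GPM1 and CDC19 in these folds are lower limits. No call was made for PFK1 against PFK2 (fold 1.17), GPM2 against GPM3 (fold 1.10) or HXK2 against HXK1 (fold 0.921, edgeR adjusted p = 0.132). For HXK2 against HXK1 the members changed place between libraries, at 2024, 2014 and 2344 against 2186, 1998 and 2799 FPKM.

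Other main and minor copies were also far apart, at smaller folds than PDC1 over PDC5. PMA1, the proton pump of the plasma membrane, had 2078, 2156 and 1985 FPKM, against 5.88, 5.44 and 6.53 FPKM for PMA2, a fold of 348 (edgeR adjusted p = 1.08e-06). YEF3, elongation factor 3, was 243 times HEF3. GAS1, a glucan-remodelling enzyme of the growing wall, was 116 times GAS2, its copy in spores. PET9, the main ADP/ATP carrier of mitochondria, had 910.1, 942 and 942 FPKM, against 24.3, 29.0 and 20.9 FPKM for AAC3, its anaerobic copy, a fold of 37.9. In each of these 4 pairs, the library ranges of the members do not come near each other.

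Among the 39 pairs with the second member higher, 3 are given here, chosen after their values were seen. HXT1 was below HXT3, which was 9.98 times higher (edgeR adjusted p = 2.58e-06). CYC1, the main cytochrome c of respiring cells, had 74.5, 84.4 and 63.1 FPKM, against 267, 214 and 245 FPKM for CYC7, the copy of low-oxygen growth, a fold of 0.305 (edgeR adjusted p = 3.85e-04). CWP1 was below CWP2 at a fold of 0.0780. Among pairs with the first member higher, COX5A, a subunit of cytochrome oxidase, was 1.34 times its hypoxic copy COX5B and not called.

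Ribosomal protein pairs were called less often than the others. Of 59 pairs, 38 were called (64.4%, beside 73.6% of all pairs and 77.5% of the 142 others). These 59 are all A and B copies by symbol, while the others were picked by hand with earlier results known. The lower share is therefore not read as a trait of ribosomal protein genes. In all 59 the same member was higher in the 3 libraries. The median fold between members was 1.64. Among clear pairs the largest were RPL15A over RPL15B at 31.5 times and RPS9B over RPS9A at 20.7 times. RPS9A had 119, 118 and 101 FPKM, against 2438, 2594 and 1978 FPKM for RPS9B. The folds of RPL43A (4.51e-04 of RPL43B), RPL33A (0.0130 of RPL33B) and RPL36A (48.5 times RPL36B) each involve a row mostly covered by another. Where 1 copy is read over so few bases, the ratio of the genes cannot be told from these counts.

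The RPL41 pair shows how small the difference in coding sequence can be. Both rows are 78 bases (RPL41A at chrIV:130407-130484, minus strand), and the sequences from RefSeq's R64 assembly are given 5′ to 3′ with the base that differs in capitals.
RPL41A: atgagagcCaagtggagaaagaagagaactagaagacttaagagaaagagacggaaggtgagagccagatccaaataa
RPL41B: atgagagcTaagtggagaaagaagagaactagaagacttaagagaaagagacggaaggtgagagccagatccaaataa
They differ by C9T, counted from the first base of the start codon with the base of RPL41A first, and the codon keeps its amino acid. RPL41A had 9113, 8272 and 6227 FPKM, against 3589.6, 3436 and 2689.8 FPKM for RPL41B. The fold was 2.42 (log2 1.27, SE 0.04, edgeR adjusted p = 1.89e-05), and the lowest library of RPL41A was above the highest of RPL41B.

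Histone pairs each encode nearly or wholly the same protein. HHT1 had 763, 752 and 614 FPKM, against 2802, 2746 and 2464 FPKM for HHT2, a fold of 0.265 (edgeR adjusted p = 5.49e-06). HTA1 had 2184, 2283 and 1985 FPKM, against 984, 907 and 767 FPKM for HTA2, a fold of 2.44 (edgeR adjusted p = 3.74e-05). HHF1 against HHF2 (fold 0.743) and HTB1 against HTB2 (fold 0.889) stayed under the fold needed for a call. Unlike these, some pairs are too alike to split: HXT15 and HXT16 are identical at 99.9% of bases, so their fold of 100.5 is uncertain, and its cause was not tested.

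Silent rows were rare among clear coding genes. Of 7127 rows, 458 (6.43%) had 0 counts in all 3 WT libraries, which allows a level of up to 0.0552 CPM for each (3 counts of 54317201, counting error only). Coding rows gave 52 of these, and 26 of them were mostly covered by other rows, 16 were mostly repeated and 10 were clear. Of 190 rows wholly covered by other rows, 186 had 0 counts and the highest had 2. Of 172 rows with no 75-base stretch of their own, 97 had 0 counts and the highest had 17144. Genes known to be needed for growth or used by every cell were among the covered rows: LSM8, a subunit of the ring that binds U6 RNA, and DID2, which takes part in endosomal sorting, had 0 counts with 93.9% of the bases covered in LSM8 and all of them in DID2.

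**Figure D4:**
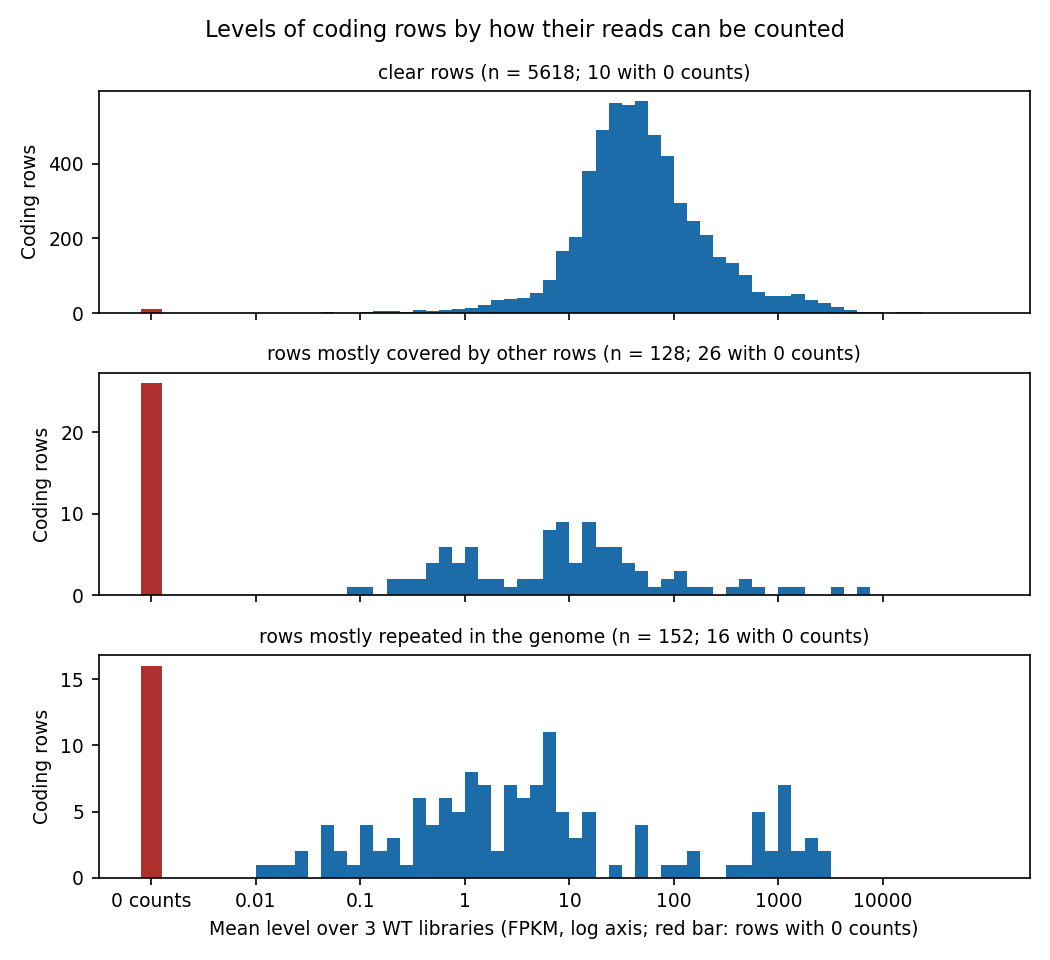
Mean level of coding rows over 3 WT libraries (FPKM, log axis) for rows that are clear, mostly covered by other rows or mostly repeated, with rows at 0 counts as a red bar at the left. Clear rows form a single broad peak around their median of 44.1 FPKM with 10 rows at 0, and the other panels hold 26 and 16 rows at 0.

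The 10 clear coding rows at 0 were LEU2, MET17, YLR302C and 7 other uncharacterised frames of 81 to 258 bases (YAL067W-A, YAR035C-A, YCR108C, YDL007C-A, YOL019W-A, YOL166W-A and YOR072W-B). LEU2 (chrIII:91324-92418), an enzyme of leucine synthesis, and MET17 (chrXII:732542-733876), which makes homocysteine, had 0, 0 and 0 counts in rows of 1095 and 1335 bases. The limits that a count of 0 allows are 0.0504 FPKM for LEU2 and 0.0414 FPKM for MET17. URA3 (chrV:116167-116970), of uracil synthesis, had 1, 1 and 0 counts, which is under the limit of 3 counts. Deletions of these 3 genes are common selection markers in laboratory strains derived from S288C.

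The rows around these genes were counted. NFS1, which starts 358 bases past LEU2, had 95.8, 99.2 and 97.2 FPKM. ACO1, 1335 bases past MET17, had 354, 340.3 and 371 FPKM, and GEA2, 366 bases before URA3, averaged 23.7 ± 0.886 FPKM. YLR302C, at 0, overlaps the start of MET17. The other marker genes of the list were all counted: HIS3 averaged 305 ± 29.7, ADE2 209 ± 21.8, CAN1 148 ± 6.85, TRP1 71.8 ± 4.30 and LYS2 41.0 ± 3.16 FPKM (SD, n = 3 each). Whether the rows at 0 are missing from the genome of these cells or untranscribed was not tested, since the files hold no DNA reads.

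Families near the chromosome ends differed from each other. The 24 seripauperins, small wall proteins of oxygen-poor growth, had a median of 1.24 FPKM, with 4 at 0 and PAU7 the highest at 36.6, 39.1 and 33.8 FPKM. Of these rows, 10 were clear, with a median of 4.63 FPKM. The 8 Y prime helicases of the chromosome ends had a median of 0.135 FPKM and no clear row. The COS family, 12 membrane proteins of the same regions, had a median of 36.8 FPKM, close to that of all clear coding rows, and COS6 was the highest at 184 ± 13.7 FPKM. Of the 64 clear coding rows under 1 FPKM, 18.8% lie within 30 kb of a chromosome end, beside 4.81% of all clear coding rows.

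High and low genes differed in their make-up, given here as a description. The 100 highest clear coding rows had a median coding length of 468 bases, the 64 rows under 1 FPKM 409.5 bases and all clear coding rows 1215 bases. The level is divided by this length, and fragments past the ends of a row count in full. The lengths are therefore not independent of the ranking. Introns were annotated in 32 of the 100 highest rows, in 0 of the rows under 1 FPKM and in 4.18% of all clear coding rows, and 53 of the 100 highest are ribosomal protein genes, many of which have an intron in this yeast. Codon use differed as well. The arginine codon AGA made up 80.7% of arginine codons in the 100 highest genes, 49.0% in the genes under 1 FPKM and 47.5% in all clear coding genes. The glycine codon GGT made up 91.7% in the 100 highest, 41.8% under 1 FPKM and 45.3% in all. Among the 100 highest genes that are not ribosomal proteins the shares were 74.9% for AGA and 85.2% for GGT.

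The WT libraries differed from each other by little at most genes and by much at some. Over the 4695 coding genes with at least 20 CPM, the median coefficient of variation (CV) was 6.87%, beside 2.74% from counting alone. A CV over 30% was seen for 78 genes, or 1.66%. The 10 largest were RCK1, a kinase of the oxidative stress response, NCE103, the carbonic anhydrase, HXT2, YKR075C, PHO89, a phosphate transporter, ADY2, an acetate transporter, MIG2, a glucose repressor, AQR1, a drug exporter, YGR067C and BOP2. RCK1 had 61.1, 32.1 and 122 FPKM in WT replicates 1, 2 and 3, a CV of 63.8%, and NCE103 had 135, 92.6 and 280.4 FPKM, a CV of 58.1%.

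Most of this spread had the same direction. Of the 50 genes with the largest CV, 43 were highest in WT replicate 3 and 42 were lowest in WT replicate 2. Over all 4695 coding genes these shares were 45.7% and 47.7%. AQR1 was an exception, with 10.6, 23.7 and 9.96 FPKM. Without WT replicate 3, 25 genes had a CV over 30%, without WT replicate 2, 47, and without WT replicate 1, 183, in alternatives chosen after seeing the data. The same library that was highest for the glucose-repressed genes and for HXT2 was thus lowest for every ribosomal protein row counted above.

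**Figure D5:**
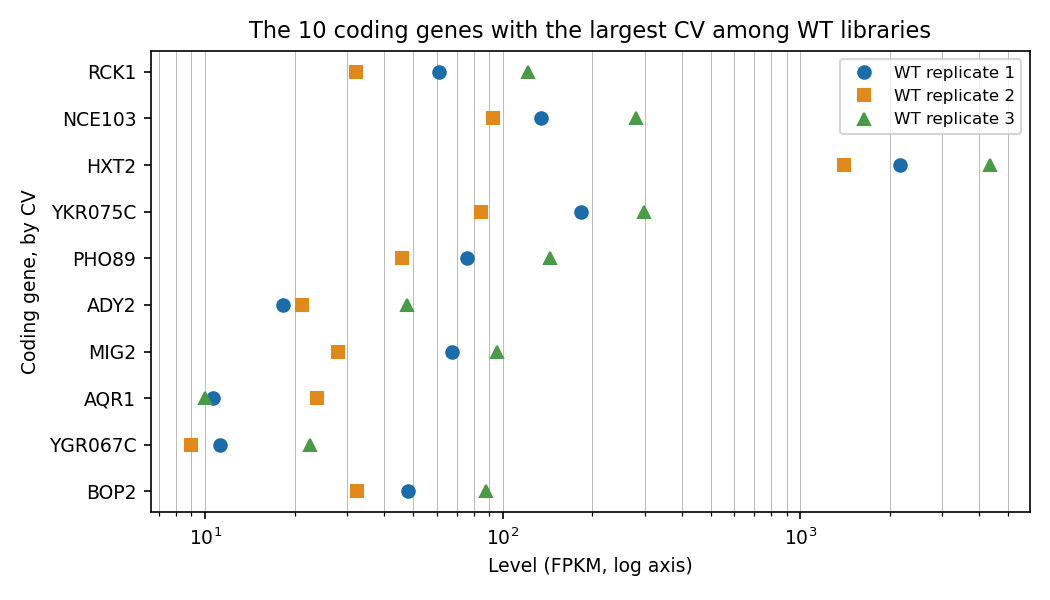
Level (FPKM, log axis) of the 10 coding genes with the largest coefficient of variation among the 3 WT libraries, with a point for each library. In 9 of the 10 genes WT replicate 3 is the highest, beside 45.7% of all coding genes with at least 20 CPM. AQR1 is the exception at 9.96 FPKM in WT replicate 3.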

How the data were processed

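The deposited table holds whole-number counts of read pairs per gene, made by the authors with featureCounts 2.0.1, per the file headers: exons summed by gene, paired, with no strand, overlap or multimapping option set. Bowtie 0.12.2 and the genome build sacCer3 are listed, with no role, per the submitters' processing notes, so the aligner behind the counted alignments remains unstated. Without strand, antisense partners cannot be told apart. The columns W1 to W3 were matched to the WT labels by initial and number. Each library held 17282728 to 19658103 counts, and a count of 0 over all 3 allows up to 0.0552 CPM, counting error only.

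FPKM and CPM were computed from the counts and Length. Rows were placed on RefSeq's R64 assembly, where 5895 of 5899 coding rows open with a start codon and close with a stop. A pair entered where at least 1 member had 10 or more counts over the 3 libraries. After a test on simulated data, pairs were fitted in edgeR 4.0.16 (R 4.3.3) by quasi-likelihood, 1 row per pair. The fit had offsets for total and Length and a term for the library. This compares 2 genes inside 3 libraries, and p-values measure the spread between these libraries. DESeq2 1.42.0, limma 3.58.1, other scalings, other lengths and leaving out each library were tried as alternatives.

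The members, gene lists and pairs were chosen with earlier results of these data known. Named are the 25 highest coding and 5 highest noncoding rows, the highest and lowest members of each list, the 12 largest called pairs with counts of at least 10 in both members, all glycolytic and histone pairs and the 10 most variable genes. Genes named outside that rule were chosen after their values were seen. In the nitrogen list, 25 of 26 names matched a row.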

Additional observations from a re-analysis of the deposited data

How the results depend on the processing

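No paired analysis was possible because only the 1 WT group is described, so replicate numbers pair no groups. The paralog fit has a term for the library, and without it 147 pairs were called in place of 148. Of the 25 highest coding genes, 20 to 25 remained among the 25 highest under the other scalings and lengths tried, except with the row's unique 75-base stretches as its length, which kept 13. The 25 genes with most counts held 20.1%, and 18.7% in TPM. Silent rows numbered 458, and 1032 when defined as under 0.5 CPM, 227 among rows mostly unique in the genome and 67 among clear rows. Called pairs numbered 148 and lay between 141 (of 191 pairs tested, with Length less 200 bases) and 148 under the alternatives over all rows, and at 131 of 175 for clear rows, a set chosen after seeing the data. Leaving out 1 library gave 145 to 147. The pair ENA1/ENA2, in repeated rows, changed sign with unique stretches as length. Genes with a CV over 30% numbered 78, and 25 to 183 with 1 library left out. The causes of these changes were not tested beyond what the settings themselves change. Depth limits silent rows to counting error, and covered or repeated rows limit what a low count can show.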
